A study of Mus musculus with 29 samples.

Results

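Enteric neurons and glia were followed in the colon by 8 genes, read from the count table by symbol among 54532 genes. Elavl4 marks neurons, Ret encodes a growth factor receptor, Nos1, Vip and Chat mark transmitter classes of neurons, and Gfap, S100b and Sox10 mark glia. All 8 passed the filter on low counts, a mean count of at least 3 over the mice, which 18616 genes passed in all.

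The libraries were made from poly(A) RNA of colon segments of 29 mice, 1 library per mouse, in 6 colitis models and 3 untreated control groups. Untreated Balb/C wild-type mice (n = 3) were the control for Balb/C mice given 3% DSS in drinking water for 5 days and culled at day 10 (n = 3). They were also the control for Balb/C mice given 3 mg DNBS in 200 µl of 50% ethanol rectally (n = 3) and for the IL-10 deficiency model (n = 4). The labels describe that model as Balb/C mice given an IL10 blocking antibody, and the protocol names 750 µg of antibody to the IL-10 receptor with culling after 4 weeks, whereas the paper's methods describe Il10-/- mice. Il10 had 61 to 111 counts in these 4 libraries and 1 to 4 in the wild-type controls. Untreated Balb/C Rag2-/- mice (n = 3) were the control for TRUC mice (n = 4), which are Balb/C Tbx21-/- x Rag2-/- and develop colitis without treatment. Untreated C57BL/6 Rag1-/- mice (n = 3) were the control for mice labelled C57BL/6 Rag1-/- given 500000 naive CD4+ T cells and culled after 6 to 8 weeks, abbreviated TCT (n = 3, recipients that the protocol calls Rag2-/-), and for mice labelled C57BL/6 Rag1-/- given 50 µg of agonistic anti-CD40 antibody and culled after 7 days (n = 3). The Rag-deficient groups lack B and T cells of their own, apart from the cells transferred in TCT. The paper's methods give C57Bl6 mice and an earlier cull for DSS, and Rag1-/- recipients with a shorter interval after transfer for TCT, so it is not certain that the labels' protocol and the paper describe the same animals. Ages are not stated in the labels, although the identifier of TRUC mouse 4 in the count table ends in 8W, a tag that they do not explain and that no other mouse carries.

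The enteric nervous system lies within the gut wall, in a myenteric plexus between the muscle layers and a submucosal plexus beneath the mucosa. Its neurons and glia come from neural crest cells that need Ret and Sox10 to populate the gut. Acetylcholine excites smooth muscle and epithelial secretion, while nitric oxide and vasoactive intestinal peptide (VIP) relax muscle, and VIP also raises secretion and acts on immune cells. Glia surround the neurons, and raised GFAP is a familiar sign of reactive glia.

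Total counts per mouse ranged from 10725564 to 14977094. Levels are given in CPM, counts divided by the TMM-scaled library size in the usual unit, and a count of 0 allows up to 3 counts, 0.179 to 0.313 CPM in these libraries, covering counting error only. Each segment contained muscle, since 12 smooth muscle genes summed to between 3159 and 14027 CPM in every library. Several libraries went against their labels for strain or genotype. H2-Ea-ps, a class II gene transcribed in BALB/c but not in C57BL/6 mice, had at most 1 count in every library labelled Balb/C wild-type, DSS, DNBS or IL-10 deficiency. It reached 67.7 to 78.4 CPM in the libraries labelled C57BL/6 Rag1-/- control and 168 to 236 CPM in those labelled anti-CD40, but had no count in those labelled TCT. Rag1 transcripts were counted 20 to 33 times per library in TCT and at most 4 times elsewhere, while Rag2 transcripts were counted 6 to 99 times in the groups labelled Rag1 control, anti-CD40, Rag2 control and TRUC and at most 1 time elsewhere. H2-Ea-ps in the Rag2 control and TRUC ran from 69.4 to 317 CPM. Tbx21 had 26 to 52 counts in TRUC against 1 to 7 in its control. A gene's total count does not tell whether the deleted part of a targeted gene was read. The libraries labelled TCT and their labelled controls therefore differed in strain marker and Rag transcripts, so TCT is also set beside the wild-type control, and anti-CD40 beside the Rag2 control.

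The regions upstream of the members' starts are shown for 3 neuronal genes as context for their regulation, because a cyclic AMP response element in the VIP gene is a textbook route by which neuronal activity raises VIP. The sequences are from RefSeq (GRCm38.p6), whose table held 6 of the 8 members, Ret and Sox10 being named only. Each lies upstream of the transcription start, 5′ to 3′ on the gene's strand, and capitals mark the letters TGACG of the half-site (CGTCA where it lies on the other strand) and, in Vip, TATAAA. Elavl4 has several starts in the table, and the outermost is shown. Vip is at chr10:5638968-5639217 on the plus strand, Elavl4 at chr4:110351912-110352161 and Chat, without bases that an annotated exon covers, at chr14:32465990-32466159, both on the minus strand. The stretches of Vip and Elavl4 reach the start, and that of Chat ends 80 bases before it.
Vip: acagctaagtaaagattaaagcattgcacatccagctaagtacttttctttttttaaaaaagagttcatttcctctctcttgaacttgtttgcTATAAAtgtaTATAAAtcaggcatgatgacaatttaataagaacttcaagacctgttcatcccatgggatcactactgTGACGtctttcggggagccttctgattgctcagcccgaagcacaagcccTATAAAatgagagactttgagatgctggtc
Elavl4: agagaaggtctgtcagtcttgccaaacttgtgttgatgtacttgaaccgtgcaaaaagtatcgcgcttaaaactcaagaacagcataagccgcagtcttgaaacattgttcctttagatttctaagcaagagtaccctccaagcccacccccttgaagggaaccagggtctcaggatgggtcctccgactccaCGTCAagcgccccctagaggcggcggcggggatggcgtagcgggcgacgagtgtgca
Chat: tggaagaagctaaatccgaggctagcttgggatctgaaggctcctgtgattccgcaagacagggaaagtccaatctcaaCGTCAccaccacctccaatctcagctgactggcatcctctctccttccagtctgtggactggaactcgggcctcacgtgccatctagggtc
The half-site began 79 bases before the start of Vip, 57 before that of Elavl4 and 171 before that of Chat. Searched on both strands, TGACG stood in 17.8% of 32851 windows of 250 bases in the table, and TATAAA in 12.4%. The full cyclic AMP response element TGACGTCA (1.55% of windows) and ACAAAG, the core of SOX sites (16.5%), were searched for too. Neither was found in any of the 9 windows of the members, that of Vip included. No TGACG was found in the windows of Gfap and S100b. The windows of Gfap and of Nos1, which held TGACG, lie inside their genes, that of Nos1 downstream of its first annotated exon. The bases that follow the S100b window did not match an annotated S100b transcript.

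Across the models the members moved in opposite directions. In DSS 5 of the 8 genes rose and none fell (Elavl4, Ret, Vip, Gfap and Sox10), in mice that by the labels were culled at day 10 after a return to normal water. In the IL-10 deficiency model 6 fell and none rose (Elavl4, Nos1, Vip, Chat, S100b and Sox10), and in TRUC 5 fell (Elavl4, Chat, Gfap, S100b and Sox10) while Ret rose. Elavl4 and S100b fell in anti-CD40, Ret alone rose in DNBS, and no member passed the test in TCT. The test throughout is edgeR's quasi-likelihood test in a single fit of all 9 groups, with Benjamini-Hochberg adjustment over 18616 genes and a threshold of 0.05. The mice of a group were not said to come from separate litters or cages, and p-values measure the spread between these mice. In TCT, where edgeR called 0 members, Elavl4 and Vip had an unadjusted p under 0.05 (0.0256 and 0.0427), and DESeq2 on the 2 groups alone called 1 member.

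These counts have to be read against the share of all genes called. In TRUC 22.4% of genes were called higher and 23.4% lower, and in DSS 17.7% higher and 16.3% lower. In DNBS the shares were 3.95% higher and 2.21% lower, and in the IL-10 deficiency model 27.2% higher and 26.1% lower. In TCT 16.1% were higher and 14% lower, and in anti-CD40 10.9% higher and 10.7% lower. The median log2 fold change over the 8 members was 1.12 in DSS, -1.13 in TRUC, -1.29 in the IL-10 deficiency model, -0.78 in anti-CD40, -0.56 in TCT and -0.28 in DNBS. Over all genes tested it lay between -0.03 and 0.02 in each of the 6 comparisons. In bulk colon RNA, fewer cells of a type and less RNA per cell cannot be told apart, and neither can a change in the share of muscle wall in the segment.

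**Figure D1:**
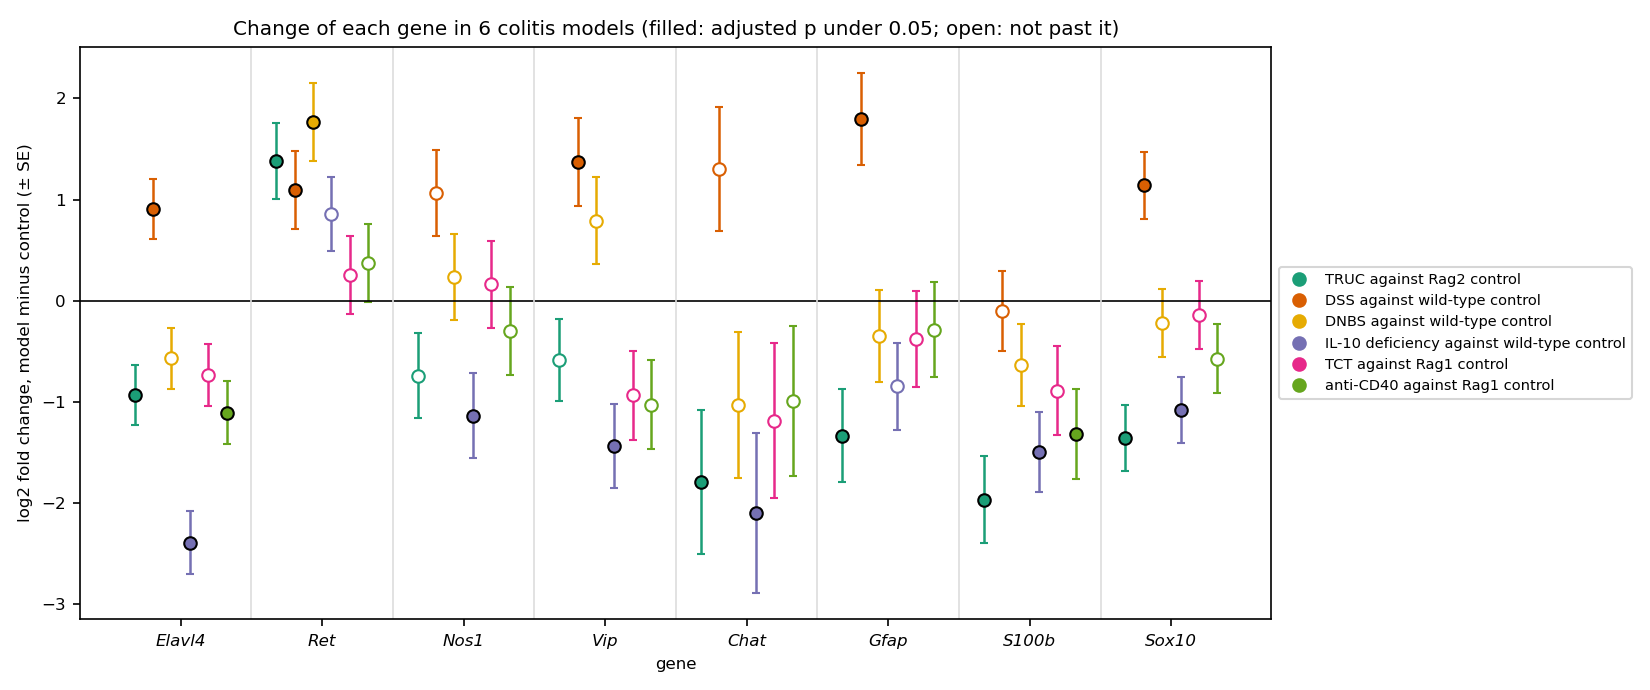
Log2 fold change (y axis, model minus control, ± SE) of each of the 8 genes (x axis) in the 6 models. Filled points passed the adjusted p threshold of 0.05, with all 5 of DSS above 0 and all 6 of the IL-10 deficiency model below it.

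Equality of the 6 changes was tested in the same fit. It was rejected for 7 of the 8 genes, against 60.5% of all genes, with adjusted p = 7.55e-07 for Elavl4, 3.61e-05 for Sox10, 8.04e-05 for Gfap, 0.000104 for Vip, 0.00184 for Nos1, 0.00224 for Chat and 0.0233 for S100b. Ret did not pass (adjusted p = 0.0704), and its fitted change was above 0 in all 6 models. DSS, DNBS and the IL-10 deficiency model share their control mice, as do TCT and anti-CD40.

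Elavl4 encodes HuD, an RNA-binding protein of post-mitotic neurons that stabilizes neuronal transcripts (ENSMUSG00000028546, chromosome 4, 110203722 to 110351909, minus strand, GRCm38). In the wild-type controls it was measured at 6.32, 5.39 and 5.49 CPM and in DSS at 7.92, 10.8 and 13.6 CPM. The 4 mice of the IL-10 deficiency model had 1.18, 1.56, 0.686 and 0.940 CPM, resting on 8 to 15 counts each. Neither model overlapped its control, DSS lying above it and the IL-10 deficiency model far below. The log2 fold change was 0.91 ± 0.30 (SE, adjusted p = 0.0204) in DSS and -2.39 ± 0.31 (SE, adjusted p = 2.96e-06) in the IL-10 deficiency model. In TRUC it was measured at 2.14, 2.67, 1.37 and 1.87 CPM against 3.80, 3.90 and 3.85 CPM in the Rag2 controls, and its log2 fold change was -0.93 ± 0.30 (SE, adjusted p = 0.0140). All 4 TRUC mice lay below the 3 controls, which were close to each other, and the call was lost without TRUC mouse 4 (adjusted p = 0.0503). In the libraries labelled anti-CD40 it was 1.69, 1.71 and 4.45 CPM against 6.24, 5.89 and 5.07 CPM in their labelled controls, a log2 fold change of -1.11 ± 0.31 (SE, adjusted p = 0.0141). Mouse 8 of that model stood near the controls and the others far below, and the call was lost without mouse 6 or 7 (adjusted p up to 0.102). DNBS (2.81 to 4.80 CPM) and TCT (3.06 to 4.19 CPM) also lay below their controls without overlap, with log2 fold changes of -0.57 ± 0.30 (SE, adjusted p = 0.249) and -0.74 ± 0.31 (SE, adjusted p = 0.0752) that did not pass. Ordered by group mean, Elavl4 ran from the IL-10 deficiency model (1.09 CPM) to DSS (10.8 CPM), and neighbours in this order overlapped except DNBS with the Rag1 control and the wild-type control with DSS.

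Ret encodes the receptor tyrosine kinase for ligands of the GDNF family, expressed in enteric neurons and also in some leukocytes and endocrine cells (ENSMUSG00000030110, chromosome 6, 118151745 to 118197718, minus strand). Its pattern differed from that of the other members, since no model's mean was below that of its control. TRUC had 22.8, 21.2, 19.1 and 20.7 CPM and the Rag2 controls 8.23, 7.65 and 8.30 CPM. This was a clear separation, with a log2 fold change of 1.38 ± 0.37 (SE, adjusted p = 0.00446). In DSS the level was 12.5, 22.3 and 27.6 CPM against 8.07, 10.2 and 10.7 CPM in the wild-type controls, and the log2 fold change was 1.10 ± 0.39 (SE, adjusted p = 0.0308), a call lost when any mouse other than DSS mouse 5 was left out (adjusted p up to 0.153). DNBS mice had 17.5, 64.7 and 16.8 CPM. Mouse 14 stood far above the rest, and the log2 fold change of 1.77 ± 0.39 (SE, adjusted p = 0.0107) was 0.83 without it (adjusted p = 0.142). Without wild-type control mouse 1 it was 1.66 (adjusted p = 0.0693). The IL-10 deficiency model, with 13.2 to 22.2 CPM, also lay wholly above its control but did not pass (log2 fold change 0.85 ± 0.37, SE, adjusted p = 0.0534). It passed in 4 of 8 alternative settings, namely no filter, the 2 groups alone, DESeq2 and a replicate block. TCT (8.24 to 19.5 CPM) and anti-CD40 (9.76 to 17.9 CPM) overlapped the Rag1 controls at 10.6 to 11.4 CPM. By group mean the 3 control groups were lowest (8.06 to 11.1 CPM) and DNBS highest (33.0 CPM), with every pair of neighbours overlapping.

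Nos1 encodes neuronal nitric oxide synthase, the enzyme of inhibitory motor neurons (ENSMUSG00000029361, chromosome 5, 117781032 to 117958840, plus strand). It was measured at 7.62, 8.05 and 10.4 CPM in the wild-type controls and at 2.86, 4.26, 2.23 and 6.58 CPM in the IL-10 deficiency model. The 4 mice lay below all 3 controls, and Nos1 fell by 1.14 ± 0.42 on the log2 scale (SE, adjusted p = 0.0247). The call was lost without mouse 1 or 3 of the model or wild-type control mouse 4 (adjusted p up to 0.0849). In DSS the level was 11.4, 21.8 and 21.5 CPM, above every control, with a log2 fold change of 1.07 ± 0.43 (SE, adjusted p = 0.0554) that did not pass. It passed in 5 of 7 alternative settings, namely no filter, edgeR's own filter, the smooth muscle level as a covariate, the 2 groups alone and DESeq2. In TRUC, TCT, anti-CD40 and DNBS the mice overlapped their controls. Mouse 8 of anti-CD40 again stood apart at 11.8 CPM against 2.82 and 4.54 CPM.

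Vip encodes the peptide of secretomotor and inhibitory neurons (ENSMUSG00000019772, chromosome 10, 5639218 to 5647617, plus strand). Per kilobase of exon it had the highest level of the 8 genes in the 9 control mice, 9.74 ± 1.89 CPM per kb (SD, n = 9). The wild-type controls had 28.4, 34.1 and 24.2 CPM, DSS 46.5, 91.6 and 86.2 CPM, and the IL-10 deficiency model 12.98, 16.8, 4.63 and 8.36 CPM. DSS mice were all above and IL-10 deficiency mice all below these controls. The log2 fold change was 1.37 ± 0.43 (SE, adjusted p = 0.0171) in DSS, a 2.58-fold level, and -1.44 ± 0.41 (SE, adjusted p = 0.00571) in the IL-10 deficiency model. DNBS mouse 14 reached 96.2 CPM, while the other 2 had 32.3 and 21.4 CPM within or near the control range. TCT (15 to 25.5 CPM) and anti-CD40 (10.98 to 28.0 CPM) lay below the Rag1 controls at 35.0 to 40.5 CPM without overlap. Their log2 fold changes, -0.94 ± 0.44 (SE, adjusted p = 0.110) and -1.03 ± 0.44 (SE, adjusted p = 0.0944), did not pass. Both passed with the 2 groups alone and with DESeq2. TRUC (17.0 to 26.0 CPM) overlapped the Rag2 controls (25.7 to 42.7 CPM), with a log2 fold change of -0.59 ± 0.40 (SE, adjusted p = 0.240). It passed in 3 of 8 alternative settings, namely the 2 groups alone, DESeq2 and a replicate block.

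Chat encodes choline acetyltransferase, the enzyme that makes acetylcholine, and is also made by some tuft cells and lymphocytes (ENSMUSG00000021919, chromosome 14, 32408203 to 32465989, minus strand). It was the lowest member, at 0.167 ± 0.0348 CPM per kb (SD, n = 9) in the control mice, and its values rest on few counts. The Rag2 controls had 10, 12 and 11 counts and the TRUC mice 6, 2, 0 and 4 counts. The wild-type controls had 7, 15 and 8 counts, and the mice of the IL-10 deficiency model 1, 0, 3 and 3 counts. In both models every mouse was below every control. Chat fell by 1.79 ± 0.71 on the log2 scale in TRUC (SE, adjusted p = 0.0430) and by 2.10 ± 0.79 in the IL-10 deficiency model (SE, adjusted p = 0.0290). From pooled counts the ratio of model to control was 0.285 in TRUC (95% exact interval 0.134 to 0.566, 12 against 33 counts) and 0.220 in the IL-10 deficiency model (0.0817 to 0.512, 7 against 30 counts), intervals that cover counting error only. The call in TRUC was lost when any mouse other than TRUC mouse 2 was left out, with adjusted p up to 0.112. For the IL-10 deficiency model it was lost without mouse 1 or 2 or without wild-type control mouse 2, with adjusted p up to 0.108. In DSS Chat had 21, 34 and 23 counts, above the controls, with a log2 fold change of 1.30 ± 0.61 (SE, adjusted p = 0.104) and a ratio of pooled counts of 2.44 (95% exact interval 1.58 to 3.85). The gene for the vesicular acetylcholine transporter, Slc18a3, lies within Chat on the same strand, without shared exons.

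Gfap encodes the intermediate filament of astrocyte-like glia (ENSMUSG00000020932, chromosome 11, 102887336 to 102900912, minus strand). In DSS it was measured at 21.6, 31.8 and 55.9 CPM against 10.97, 14.6 and 5.66 CPM in the wild-type controls. This was the largest change among the members in DSS, 3.48-fold, with a log2 fold change of 1.80 ± 0.45 (SE, adjusted p = 0.00365) and no overlap. TRUC went the other way, with 2.36, 3.29, 1.28 and 3.17 CPM against 7.79, 5.66 and 5.81 CPM in the Rag2 controls, and the log2 fold change was -1.34 ± 0.46 (SE, adjusted p = 0.0201). The call in TRUC was lost without TRUC mouse 4 or without Rag2 control mouse 1 (adjusted p up to 0.0752). The IL-10 deficiency mice were spread from 2.66 to 11.3 CPM and overlapped their controls. Without mouse 4 of that model, the highest, the log2 fold change went from -0.85 (adjusted p = 0.0998) to -1.39 (adjusted p = 0.00998), and without wild-type control mouse 4 it was -1.14 (adjusted p = 0.0427).

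S100b encodes a calcium-binding protein of glia (ENSMUSG00000033208, chromosome 10, 76253853 to 76261159, plus strand). It did not follow Gfap in DSS, where 2.64, 3.69 and 2.72 CPM lay within the wild-type control values of 4.57, 3.33 and 1.80 CPM (log2 fold change -0.10 ± 0.39, SE, adjusted p = 0.867). TRUC mice had 0.958, 0.445, 0.458 and 0.488 CPM, resting on 5 to 13 counts each, against 2.39, 1.68 and 3.02 CPM in the Rag2 controls. All 4 lay below the controls, and S100b fell by 1.97 ± 0.43 on the log2 scale (SE, adjusted p = 0.000806). In the IL-10 deficiency model it was 1.18, 1.56, 0.429 and 1.46 CPM, also below every control, where S100b fell by 1.497 ± 0.40 on the log2 scale (SE, adjusted p = 0.00319). In the libraries labelled anti-CD40 it was 0.845, 0.428 and 1.43 CPM against 1.78, 2.14 and 3.01 CPM, and it fell by 1.32 ± 0.45 on the log2 scale (SE, adjusted p = 0.0375). This call was lost without anti-CD40 mouse 6 or 7 or Rag1 control mouse 3 or 4 (adjusted p up to 0.197). TCT, with 0.769 to 1.75 CPM, lay below the Rag1 controls but did not pass (log2 fold change -0.89 ± 0.44, SE, adjusted p = 0.129). Against the wild-type control TCT was lower for S100b (log2 fold change -1.38, adjusted p = 0.0175) and for no other member.

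Sox10 encodes the transcription factor that glia and their neural crest precursors require (ENSMUSG00000033006, chromosome 15, 79154908 to 79165240, minus strand). It was measured at 6.70, 7.25 and 6.31 CPM in the wild-type controls and at 11.01, 18.3 and 15.5 CPM in DSS. The 3 DSS mice stood above every other mouse, with a log2 fold change of 1.14 ± 0.33 (SE, adjusted p = 0.00995). In the IL-10 deficiency model Sox10 was 2.02, 4.05, 3.09 and 3.66 CPM, and in TRUC 3.98, 2.13, 1.56 and 2.85 CPM against 7.43, 6.12 and 6.94 CPM in the Rag2 controls. Both models lay wholly below their controls. The fall on the log2 scale was 1.08 ± 0.32 (SE, adjusted p = 0.00743) in the IL-10 deficiency model and 1.36 ± 0.33 (SE, adjusted p = 0.00171) in TRUC. DNBS and TCT overlapped their controls, with log2 fold changes of -0.22 ± 0.34 (SE) and -0.14 ± 0.34 (SE).

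**Figure D2:**
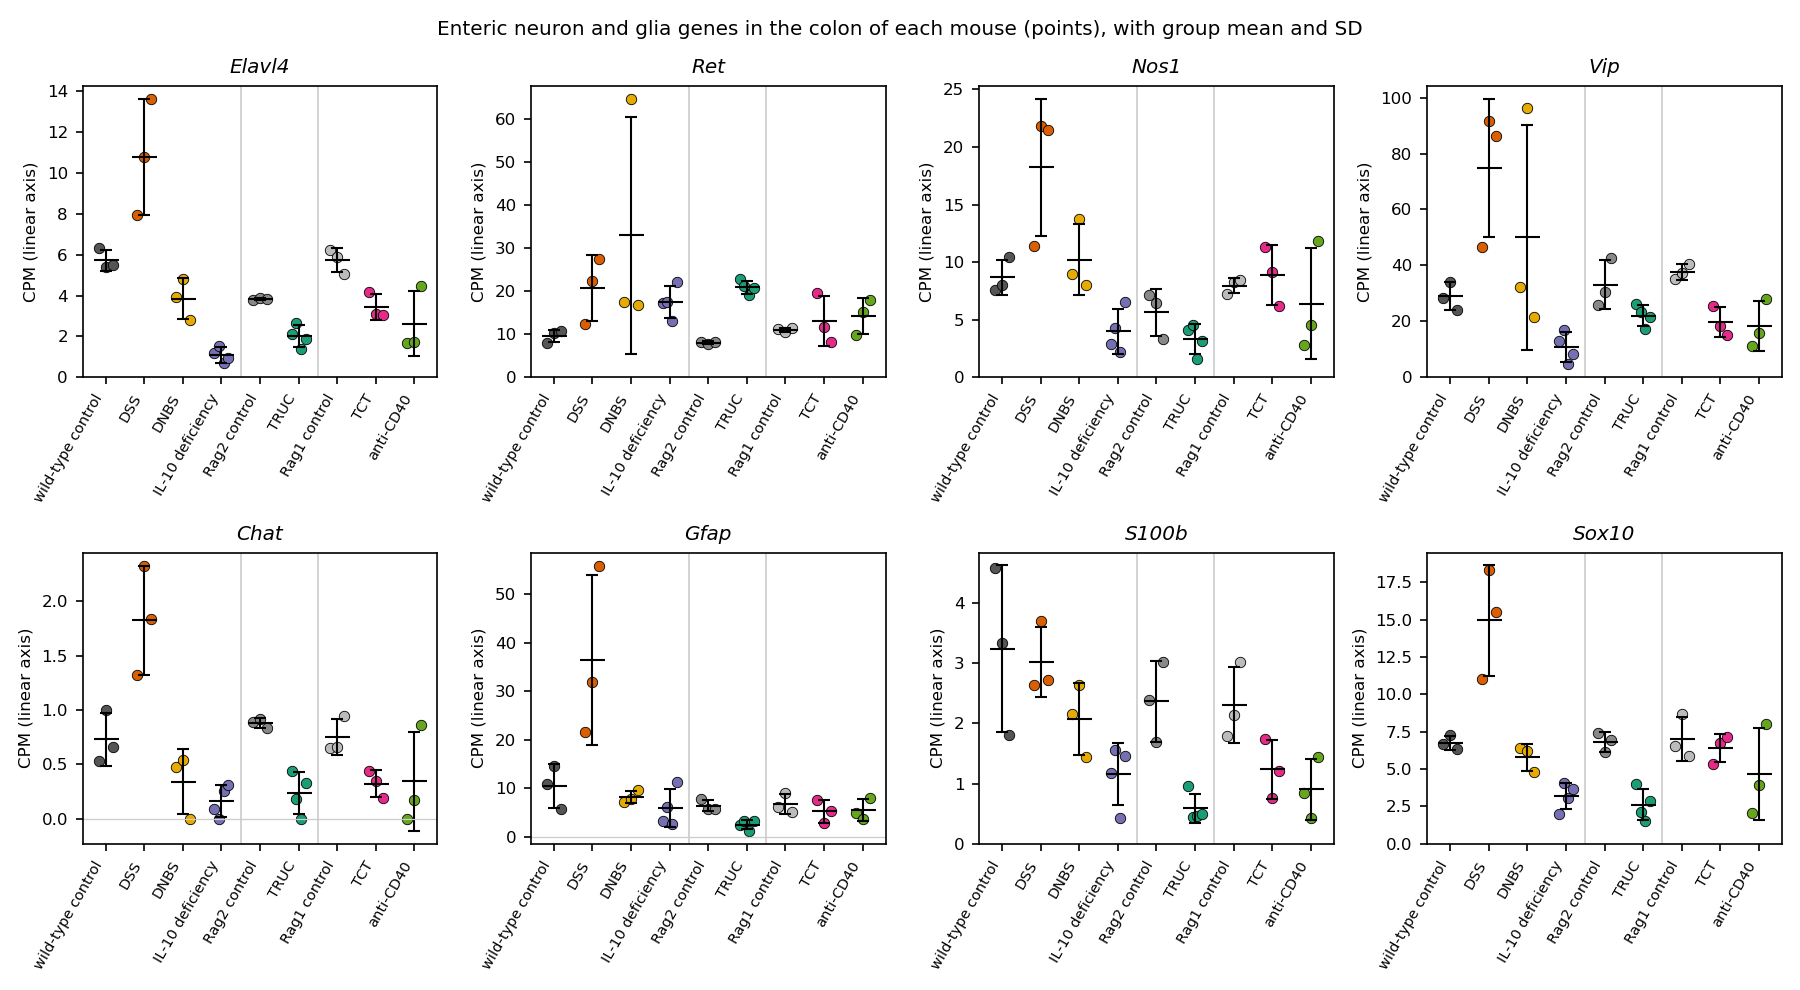
CPM (y axis, linear, separate scale per gene) of the 8 genes in each of the 29 mice by group (x axis), with points for mice and black bars for mean and SD. The DSS points lie above all others for Elavl4, Chat, Gfap and Sox10, and DNBS mouse 14 stands alone for Ret at 64.7 CPM.

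DSS calls depended on single mice. Without DSS mouse 8 or wild-type control mouse 4 the number of members called fell from 5 to 2, and without DSS mouse 6 or wild-type control mouse 1 or 2 it fell to 3. The share of all genes called in these DSS fits was not computed, so these counts cannot be set against it. Gfap and Sox10 stayed past the threshold with each mouse left out in turn, while Vip (adjusted p up to 0.0669), Elavl4 (up to 0.113) and Ret did not. In TRUC the count fell from 6 to 3 without mouse 4, the one tagged 8W, when 19.6% of all genes were higher and 19.8% lower. Mouse 8 of anti-CD40 differed from mice 6 and 7 in most members, and without it the count of members called lower rose from 2 to 5, adding Vip, Chat and Sox10 (log2 fold changes -1.48, -2.93 and -1.21), with 13.5% of all genes lower. Against the Rag2 control the anti-CD40 libraries were lower for S100b (log2 fold change -1.35, adjusted p = 0.0297) but did not pass for Elavl4 (-0.54, adjusted p = 0.221).

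Smooth muscle, which surrounds the myenteric plexus, was measured beside these results. In the IL-10 deficiency model 11 of 12 smooth muscle genes fell and in TRUC 7 of 12, and edgeR called none in DSS, DNBS, TCT or anti-CD40, where 1 had an unadjusted p under 0.05 in DNBS and 0 in the other models. Their mean log2 CPM was 6.71 to 7.67 in the IL-10 deficiency model against 8.07 to 8.35 in the wild-type controls, and 6.77 to 7.43 in TRUC against 7.98 to 8.18 in the Rag2 controls. The alternatives differed here too, with 5 of the 12 lower in TCT against the wild-type control (median log2 fold change -0.84) and 2 of the 12 lower in anti-CD40 without mouse 8 (median -0.74). Of all genes 13.8% and 13.5% were lower in these fits. In DSS the level ran from 7.57 to 8.88 across the control range, and mouse 8 of anti-CD40, at 8.16, stood above mice 6 and 7 at 6.74 and 6.96. The muscle level was low in TRUC, in the IL-10 deficiency model and in anti-CD40 mice 6 and 7, where most members other than Ret were low. It was 7.35 to 7.64 in the Rag1 controls, where the mean log2 CPM of the 8 members was 2.53 to 2.70. That mean was 2.48 to 2.85 in the wild-type controls and 3.22 to 3.97 in DSS. These levels are descriptions, and how they relate to muscle was not tested. Every TRUC and IL-10 deficiency mouse had more Ret than its controls. When the muscle level entered the fit as a covariate, the members called fell from 6 to 2 in TRUC, where Ret (log2 fold change 1.48, adjusted p = 0.0198) and S100b (-1.31, adjusted p = 0.0370) remained. They fell from 6 to 1 in the IL-10 deficiency model, leaving Elavl4 (-1.88, adjusted p = 0.000809). Calls over all genes fell as well, to 12% higher and 10.8% lower in TRUC and to 14.5% higher and 10.3% lower in the IL-10 deficiency model. In DSS the members called went from 5 to 6, with Nos1 added (19.2% of all genes higher and 17.7% lower), and the number that differed between the models fell from 7 to 4 (49.9% of all genes). All 3 markers of interstitial cells of Cajal, the pacemaker cells of the muscle (Kit, Ano1 and Etv1), also fell in TRUC and in the IL-10 deficiency model, and with the covariate 2 and 0 of them did. In TRUC and in the IL-10 deficiency model the muscle level did not overlap that of the controls. The covariate fits therefore cannot separate muscle from the model there. The part of muscle in the members' values was not tested.

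**Figure D3:**
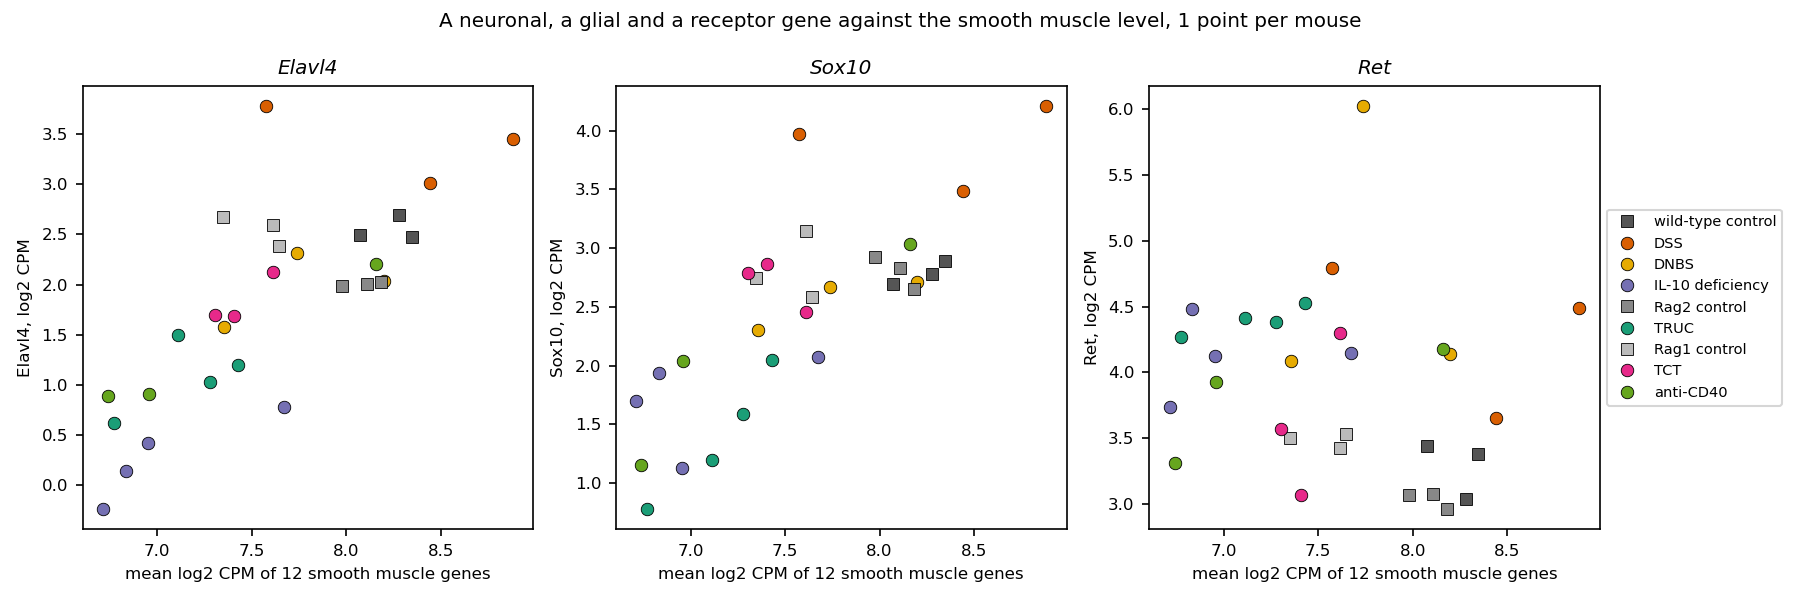
Log2 CPM of Elavl4, Sox10 and Ret (y axes) against the mean log2 CPM of 12 smooth muscle genes (x axes) in 29 mice, with squares for controls and circles for models. IL-10 deficiency and TRUC mice lie at the lower left for Elavl4 and Sox10, whereas for Ret they lie above the controls.

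Other genes of neuronal cell bodies and axons, a list of 22, all passed the filter. Counts for this and the other lists are to be read against the shares of all genes given above. In TRUC 16 fell and none rose (median log2 fold change -1.12), among them Rbfox3, a nuclear marker of mature neurons (-1.95 ± 0.68, SE), Elavl3, a relative of Elavl4 (-1.41 ± 0.36, SE), and Syt1, the calcium sensor of synaptic vesicles (-1.40 ± 0.26, SE). The IL-10 deficiency model had 17 falls (median -1.36), led by Rtn1 (-2.52 ± 0.35, SE), Stmn2 (-2.20 ± 0.27, SE) and Syt1 (-2.03 ± 0.25, SE). In DSS 9 rose and 1 fell (median 0.67). Hand2 and Phox2a, transcription factors of the enteric and autonomic lineage, rose by 1.24 ± 0.35 and 1.19 ± 0.41 on the log2 scale (SE), and the neuronal tubulin Tubb3 by 1.10 ± 0.37 (SE). L1cam, an adhesion molecule that is also made outside neurons, was the one that fell (-0.97 ± 0.18, SE). TCT had 7 falls, among them Elavl3 and the neurofilament Nefl (-1.34 ± 0.39 and -1.32 ± 0.38, SE). Against the wild-type control it had 6, when 13.8% of all genes were lower. Anti-CD40 had 5 falls, and 13 without mouse 8, when 10.7% and 13.5% of all genes were lower. In DNBS 1 fell, Rtn1 (-1.31 ± 0.36, SE), near the 2.21% of all genes lower there. None fell without mouse 14, when the share of all genes lower was 0.231%. With the muscle level as a covariate the falls were 4 in TRUC and 9 in the IL-10 deficiency model, and DSS kept 9 rises and 1 fall by count.

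Of 24 genes for transmitters, peptides and their receptors, 21 passed the filter. The list moved in both directions. In TRUC 10 fell and 1 rose, in the IL-10 deficiency model 8 fell and 2 rose, and in DSS 8 rose and 2 fell. TCT had 3 falls, DNBS 1, and anti-CD40 1 rise and 2 falls, or 7 falls without mouse 8. Of all genes 14% were lower in TCT and 10.7% in anti-CD40 (13.5% without mouse 8). The 3 falls in TCT and 2 in anti-CD40 lie near these shares. With the muscle covariate the falls were 3 in TRUC and 4 in the IL-10 deficiency model. Falls included Nmu, which encodes neuromedin U (-2.09 ± 0.49 in TRUC and -2.41 ± 0.50 in the IL-10 deficiency model, SE), and Calb2, the calretinin of many enteric neurons (-1.96 ± 0.31 in the IL-10 deficiency model, SE). Penk and Gal, the genes for enkephalin and galanin, rose in DSS by 1.56 ± 0.49 and 1.86 ± 0.71 on the log2 scale (SE). Tac1, the precursor of substance P made by excitatory neurons and enterochromaffin cells, stood apart. It rose from 38.6 ± 3.64 CPM (SD, n = 3) in the Rag2 controls to 264 ± 42.1 CPM (SD, n = 4) in TRUC, and from 20.9 ± 2.44 CPM (SD, n = 3) in the wild-type controls to 190 ± 132 CPM (SD, n = 4) in the IL-10 deficiency model and 150 ± 29.2 CPM (SD, n = 3) in DSS. Its log2 fold change was 2.77 ± 0.44, 3.18 ± 0.45 and 2.84 ± 0.45 (SE) in these 3 models and 1.85 ± 0.44 (SE) in anti-CD40. Enteroendocrine markers, a list of 9, had 7 rises in DSS, 4 in anti-CD40 and 2 in DNBS, 1 rise and 1 fall in TRUC, 2 and 4 in the IL-10 deficiency model and 1 and 5 in TCT. Their part in the values of shared peptides was not tested.

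The ligands and coreceptors around Ret and the endothelin pathway formed a list of 10. Ligand and receptor moved in opposite directions in TRUC and in the same direction in DSS. In TRUC, where Ret rose, Gdnf, the ligand made by muscle and glia, fell from 3.40 ± 0.707 CPM (SD, n = 3) to 1.41 ± 0.467 CPM (SD, n = 4), and its coreceptor Gfra1 fell by 2.03 ± 0.35 on the log2 scale (SE). Gfra1 fell in the IL-10 deficiency model by 1.46 ± 0.33 and Gfra2, the coreceptor of neurturin, by 1.36 ± 0.29 (SE). In DSS Gdnf, the related ligand Artn and the endothelin receptor Ednrb rose, by 1.09 ± 0.35, 1.33 ± 0.31 and 1.21 ± 0.21 on the log2 scale (SE). Edn3, the endothelin that keeps neural crest cells proliferating, rose in the IL-10 deficiency model from 5.40 ± 0.339 CPM (SD, n = 3) to 20.3 ± 7.89 CPM (SD, n = 4), and it also rose in TCT and TRUC (1.56 ± 0.28 and 0.73 ± 0.26, SE). In all, 5 of the 10 fell and 1 rose in TRUC and in the IL-10 deficiency model, 3 rose in DSS, 2 rose and 2 fell in TCT, 2 fell in anti-CD40 (4 without mouse 8) and edgeR called 0 in DNBS, where 1 had an unadjusted p under 0.05. The counts in TCT lie near the shares of all genes there, 16.1% higher and 14% lower. In anti-CD40 10.7% of all genes were lower, and 13.5% without mouse 8. With the muscle covariate the falls were 2 in TRUC and 1 in the IL-10 deficiency model.

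Genes by which muscle and epithelium receive VIP, nitric oxide and acetylcholine were a list of 7. In TRUC 5 fell, led by Prkg1, the kinase that nitric oxide signalling activates through cyclic GMP (-1.74 ± 0.34, SE), and the muscarinic receptor Chrm2 (-1.48 ± 0.30, SE). Likewise 5 fell in the IL-10 deficiency model, led by Gucy1a1, a subunit of the nitric oxide receptor (-2.09 ± 0.22, SE), and the muscarinic receptor Chrm3 (-1.66 ± 0.39, SE). Vipr2, a VIP receptor, fell in TRUC (-1.01 ± 0.33, SE) and anti-CD40 (-1.001 ± 0.36, SE). Vipr1 fell in TCT (-0.74 ± 0.18, SE) and in TRUC (-0.52 ± 0.17, SE). Anti-CD40 had 2 falls, or 5 without mouse 8. By edgeR 0 of the 7 were called in DSS and DNBS, where 2 and 1 had an unadjusted p under 0.05. Adding the muscle level left 3 falls in TRUC and 2 in the IL-10 deficiency model.

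A further 15 glial genes followed Sox10 in part. In TRUC 10 fell and in the IL-10 deficiency model 9, with no rise in either model. The potassium channel gene Kcna1 fell by 2.10 ± 0.46 in TRUC and 2.62 ± 0.44 in the IL-10 deficiency model on the log2 scale (SE). Foxd3 and Cdh19, which mark the neural crest and its glia, fell in TRUC by 1.89 ± 0.46 and 1.81 ± 0.34 (SE). In DSS 4 rose and 1 fell; Scn7a, Gpm6b and Lgi4 rose by 0.93 ± 0.29, 0.91 ± 0.21 and 1.15 ± 0.36 on the log2 scale (SE). Erbb3, which epithelium also makes, was the gene that fell there (-1.25 ± 0.27, SE). Glial falls numbered 3 in TCT, beside a rise of Gpm6b (0.82 ± 0.21, SE), or 7 with no rise against the wild-type control. Of all genes 14% and 13.8% were lower in these comparisons. In anti-CD40 2 fell, near the 10.7% of all genes lower there, and 10 without mouse 8, when 13.5% were lower. In DNBS edgeR called 0, and 0 had an unadjusted p under 0.05. With the muscle covariate 4 glial genes fell in TRUC and 3 in the IL-10 deficiency model.

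**Figure D4:**
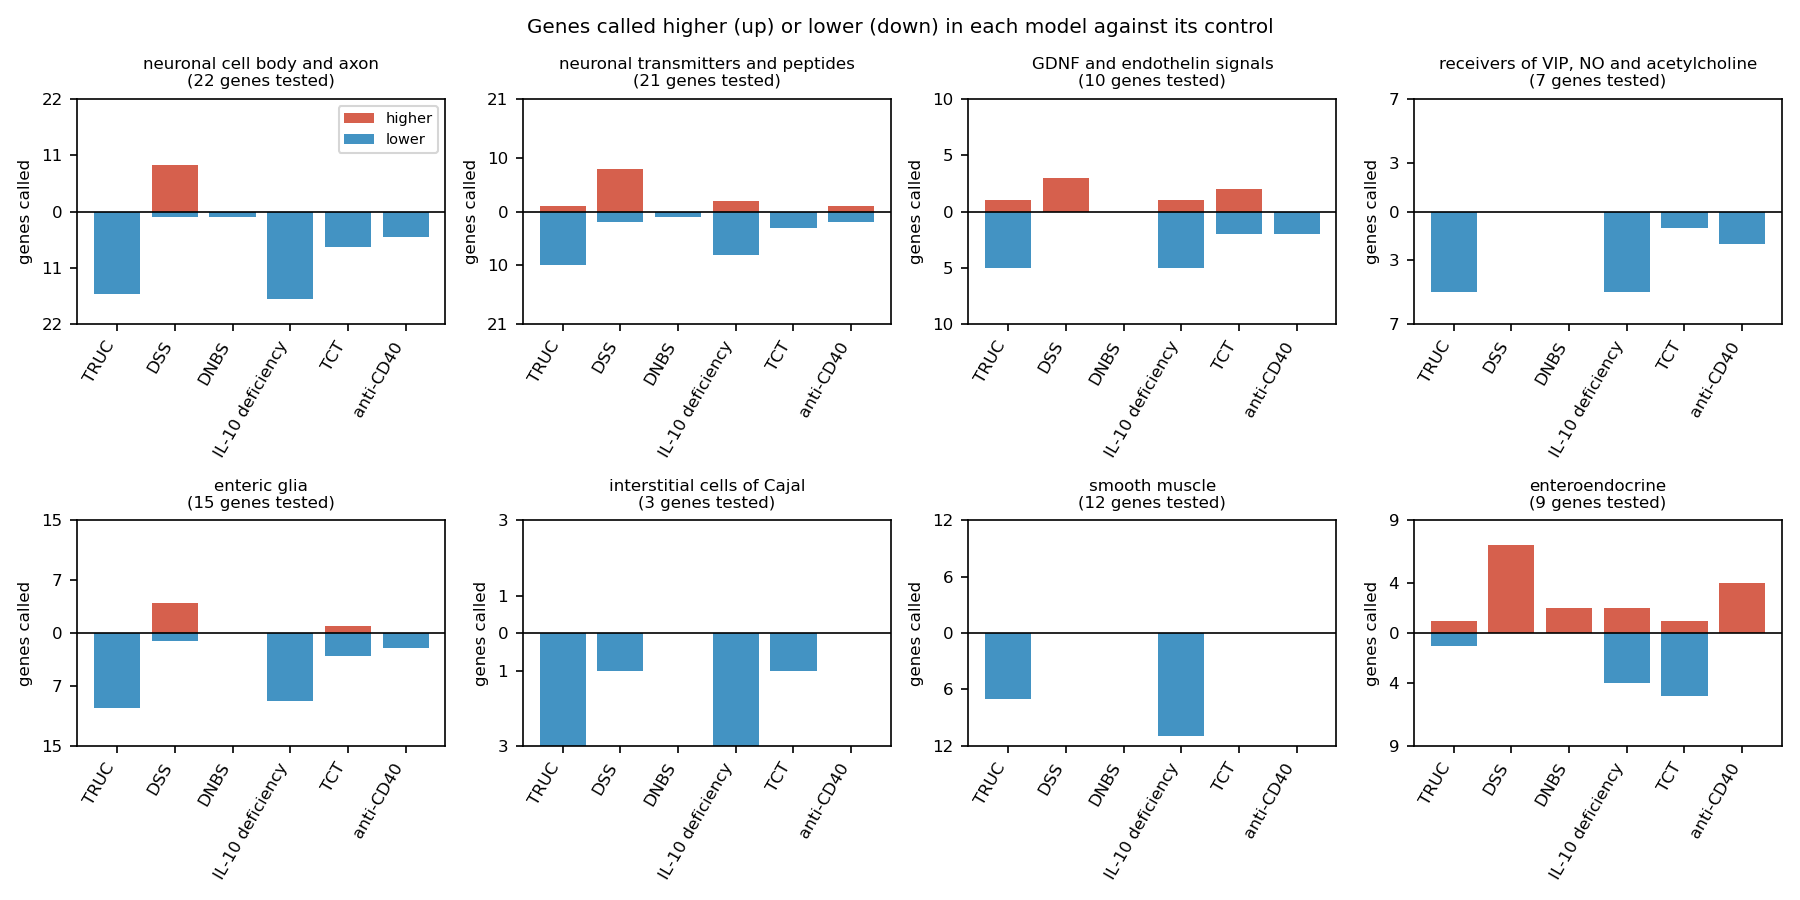
Number of genes called (y axis) higher, above 0, or lower, below 0, in each model (x axis) for 8 gene lists, with the axis limit at the number tested. Falls dominate the neuronal, glial and muscle lists in TRUC and the IL-10 deficiency model, and DSS shows 9 rises among 22 neuronal genes with no muscle gene called.

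Leukocyte genes rose in the same mice, 6 of 8 in TRUC, DSS and the IL-10 deficiency model, 7 in TCT, 4 in anti-CD40 and 3 in DNBS. Other tissue markers also moved. Of 10 epithelial genes 6 rose and 1 fell in the IL-10 deficiency model, 4 rose and 3 fell in TRUC and 1 rose and 4 fell in DSS. Adipocyte genes fell in TRUC (5 of 5), TCT (4 of 5) and anti-CD40 (2 of 5). Fibroblast genes fell in the IL-10 deficiency model (3 of 5) and anti-CD40 (2 of 5), rose in DSS and DNBS (2 of 5 in each), and had 1 fall in TRUC and 1 rise in TCT. Tuft cell genes, from a cell type that can make Chat, fell in the IL-10 deficiency model and in anti-CD40 (3 of 5 in each) and rose in DSS (2 of 5). They had 1 rise and 1 fall in TRUC, 1 rise in TCT and 0 calls in DNBS. The part of these cells in the members' values was not tested.

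Over the 29 mice the members other than Ret resembled each other in log2 CPM, with Pearson's r of 0.61 to 0.88 between pairs, whereas Ret had r of -0.14 to 0.27 with the other 7. These are descriptions, since mice share groups and the libraries share composition. Elavl4 was most like Kif5a, a neuronal kinesin (r = 0.968), Snap25, a protein of the synaptic vesicle fusion machinery (0.967), and the sodium leak channel gene Nalcn (0.962). Sox10 was most like Scn7a (0.933), Kcnn3 (0.932) and Npr2 (0.929), and Gfap like Tubb3 (0.897), Gpr37l1 (0.879) and S1pr3 (0.868). Nos1 was closest to Syngr1, Pou3f3 and Dpp6 (0.907 to 0.922), Vip to Scg2, P3h4 and Fgf14 (0.895 to 0.912), Chat to Prkar1b, Fam184a and Ndst4 (0.870 to 0.885) and S100b to Tceal3, Hoxb5os and Tanc2 (0.882 to 0.887). Ret was nearest to Loxl2 (0.839) and Lox (0.832), which encode collagen cross-linking enzymes, and Spp1 (0.813), which encodes osteopontin.

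Per kilobase of exon, the control mice had Vip far above the rest, followed by Sox10 (2.25 ± 0.280 CPM per kb, SD, n = 9), Gfap (1.87 ± 0.756), S100b (1.78 ± 0.637) and Ret (1.42 ± 0.224). Elavl4 (0.948 ± 0.189), Nos1 (0.666 ± 0.171) and Chat were lowest. The ranges of Gfap and S100b overlapped those of both Sox10 and Ret, which did not overlap each other, and the range of Elavl4 overlapped that of Nos1.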

How the data were processed

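The authors deposited a table of raw counts per gene for 29 colon libraries; per the submitters' processing notes the reads were trimmed with Trimmomatic, aligned with HISAT2 to GRCm38 and counted with HTSeq, versions and strand setting not given in the sources used here. How reads that several copies share, or that antisense partners overlap, were assigned or left out is therefore not known. A part of Nos1 overlaps an exon of Gm26995 on the other strand, which had 3 counts in all. Rows of 92 spike-ins, which held 0 counts, were left out.

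Counts were fitted with edgeR 4.0.16 in R 4.3.3 (TMM scaling, mean count of at least 3, quasi-likelihood test, 9 groups in a single fit). Every model was set against its labelled control, and the SE was taken from the log2 fold change and F. From each list at most 3 called rises and 3 called falls per model were named, those of largest size with a mean of at least 1 CPM in the model or its control. Vipr1 in TRUC was named besides. The members and lists were chosen with earlier results of these data known. Alternatives were RLE and upper quartile scaling, no filter, filterByExpr, a smooth muscle covariate (mean log2 CPM of 12 genes), other controls, the 2 groups alone, DESeq2 1.42.0, a replicate block and each mouse left out. The comparisons of gene lists without single mice, under the covariate or with another control were added after the data were seen. The script was tested on simulated data. Symbols were found for 54409 of 54532 genes.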

Additional observations from a re-analysis of the deposited data

Results flagged for a closer look

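S100b in TRUC mouse 2, at 0.958 CPM, lay far from the other 3 mice of the group, at 0.445 to 0.488 CPM, although all 4 were below the Rag2 controls. These values rest on few counts, 13 in mouse 2 against 5, 5 and 6 in the others. Chance alone flags about 1 in 20 such groups of 4, and 16 were examined. The 6 models differed in the change from control for Elavl4 (adjusted p = 7.55e-07), Sox10 (3.61e-05), Gfap (8.04e-05), Vip (0.000104), Nos1 (0.00184), Chat (0.00224) and S100b (0.0233), by edgeR's test of equal changes adjusted over all genes. DSS and the IL-10 deficiency model lay on opposite sides of their shared wild-type control for Elavl4, Nos1, Vip, Chat and Sox10 in every mouse.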

How the results depend on the processing

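Across the alternatives, 589 of the members' log2 fold changes kept their direction and side of the threshold, 54 were lost, 28 were gained and 9 changed sign. When single mice were left out, the members called ranged from 3 to 6 in TRUC, 2 to 6 in DSS, 0 to 1 in DNBS, 4 to 7 in the IL-10 deficiency model, 0 to 0 in TCT and 0 to 5 in anti-CD40, and from 6 to 8 for the difference between models. Among these fits with a mouse left out, the share of all genes called was computed only for those without TRUC mouse 4, DNBS mouse 14 or anti-CD40 mouse 8. The muscle covariate left 2 in TRUC, 1 in the IL-10 deficiency model and 4 for the difference between models. Fitting the 2 groups alone gave 0 in DNBS and 2 in TCT, and DESeq2 gave 0 and 1. Without the filter anti-CD40 had 1, against the Rag2 control 1, and TCT against the wild-type control 1. Signs changed for Sox10 in DNBS under the covariate (0.057) and Nos1 in anti-CD40 against the Rag2 control (0.20). They also changed when single mice were left out, which gave ranges of -1.10 to 0.047 for Nos1 in anti-CD40, -0.026 to 0.38 for Nos1 and -0.10 to 1.15 for Vip in DNBS, -0.39 to 0.22 for S100b in DSS, and -0.15 to 0.50 for Ret, -0.051 to 0.36 for Nos1 and -0.25 to 0.054 for Sox10 in TCT. The mice concerned were anti-CD40 mouse 6, DNBS mouse 14, wild-type control mouse 1, TCT mouse 1 (Ret and Nos1) and Rag1 control mouse 3. None of these had been called, and the cause was not tested. Same-numbered mice did not deviate together (correlations -0.05 to 0.06). With no mice known to be paired for comparison, this does not settle whether the numbers pair them. A replicate block gave 6 members in TRUC and 5 in the IL-10 deficiency model. Upper quartile scaling moved the median of all genes to -0.14 in TRUC and -0.18 in the IL-10 deficiency model, where 3854 genes were then higher and 6187 lower against 5058 and 4858, and in DNBS 542 and 520 against 736 and 412. The covariate left 2231 higher and 2004 lower in TRUC (4163 and 4361 without it), 2692 and 1921 in the IL-10 deficiency model and 414 and 169 in DNBS. Few counts limit Chat, with 0 to 34 per mouse. They also limit S100b, with 5 to 13 in TRUC, 5 to 15 in the IL-10 deficiency model and 5 to 20 in anti-CD40.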
